A study of Mus musculus with 24 samples.

Results

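The 39 genes described here are astrocyte and radial glia genes, chosen by symbol from the 24062 genes in the deposited count files, and all 39 were in the files. They were measured in brain tissue of Celf6 knockout (KO) and wild-type (WT) mice at postnatal day 9, taken from just behind the thalamus with the cortex removed. The Celf6 protein binds RNA and belongs to the CELF family. The 4 groups were KO TRAP (n = 5), WT TRAP (n = 5), KO input (n = 5) and WT input (n = 3). TRAP is translating ribosome affinity purification, which pulls down RNA on tagged ribosomes, and here the tag came from an allele made for serotonin cells. Input is total RNA of the same kind of tissue and holds every cell type in it. All TRAP mice, KO and WT, carried the TRAP allele, and the labels give neither the promoter that drives it nor the mouse strain nor how the knockout was made. The series text describes 5 brains of each genotype, so libraries of 1 group stand for separate brains.

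Radial glia are the progenitors that line the embryonic ventricle. They make neurons first and astrocytes later, and around birth many of them turn into astrocytes. Astrocytes take up glutamate and GABA from synapses, buffer potassium and water, feed neurons with lactate and lipids, and secrete proteins that shape the matrix and synapses. In the hindbrain and midbrain of a mouse pup both stages are present, so filament, lipid-binding and Notch genes of radial glia occur beside the transporters of maturing astrocytes. Several of these genes are also active elsewhere: Apoe in microglia, Vim in vessel cells, Bcan and Ptprz1 in oligodendrocyte precursors, and Mt3 in some neurons.

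The 19 libraries used held 3390423 to 6861963 counts in genes, with 13788 to 15892 genes seen. WT input 4 held 325072 counts, was labelled an outlier and was not used, and 4 repeat sequencing runs were left out. The counts of WT input 2 and WT input 3 agreed as closely as repeat runs do (a chi-square per gene of 1.34, with 1.37 to 2.58 for the repeat runs), and the pair was counted as 1 sample, WT input 2/3. KO TRAP 1 and WT input 5 each held both Xist and Y-linked RNA (381 and 154 counts in KO TRAP 1, 123 and 33 counts in WT input 5), while the other 16 libraries were rich in 1 kind only. Celf6 itself had 21.4 to 115 CPM (TMM-normalized counts scaled to a common library size) in KO TRAP and 85.3 to 188 CPM in WT TRAP, and 4.79 to 22.0 CPM in KO input against 15.4 to 105 CPM in WT input, so its ranges overlapped in both RNA kinds. The genes that define astrocytes (Gfap, Aqp4, Slc1a3, Aldh1l1, Gja1 and Sox9) had reads in all 18 libraries, TRAP included, with lowest values of 3.47 CPM for Gja1 and 17.6 CPM for Gfap. The 12 serotonergic genes summed to 5108 to 12124 CPM in TRAP and 207 to 340 CPM in input.

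Astrocyte and radial glia transcripts were lower in serotonin-cell TRAP than in input, from enzymes and transporters to transcription factors and secreted proteins. Of the 39 genes, 16 were lower in TRAP and 0 higher at an adjusted p below 0.05 (edgeR quasi-likelihood test over all genes, Benjamini-Hochberg adjustment), where 2.31% of 14261 genes were called lower and 2.41% higher. The median log2 fold change (TRAP minus input) of the 39 genes was −1.13, against 0.02 over all genes tested. It was negative for 37 of the 39 genes, against 48.4% of all genes, and 26 had an unadjusted p below 0.05, against 19% of all genes. The shares over all genes given above are from the main edgeR fit and do not apply to the alternative fits that follow. For those fits the share over all genes is not given here. Their counts thus do not show how the 39 genes stood against all genes in the same fit. DESeq2 called 23 lower and 0 higher. With the replicate number taken as the brain and used as a block, 9 were called lower. That fit rests on the 7 pairs of libraries that share a number, since WT TRAP 2, 3 and 4 and WT input 2/3 have no partner in it. In 2 of these pairs, KO 1 and WT 5, sex-linked RNA did not match (154 Y-linked counts in KO TRAP 1 and 3 in KO input 1, and 2 Xist counts in WT TRAP 5 and 123 in WT input 5), so a shared number may not mean 1 brain there. Without the 2 libraries that held both Xist and Y-linked RNA, 9 were called lower. TRAP is a pull-down and input is total RNA, so these differences do not measure the number of cells of a type or the RNA per cell. Between libraries of 1 RNA kind, fewer cells of a type and less RNA per cell cannot be told apart.

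**Figure D1:**
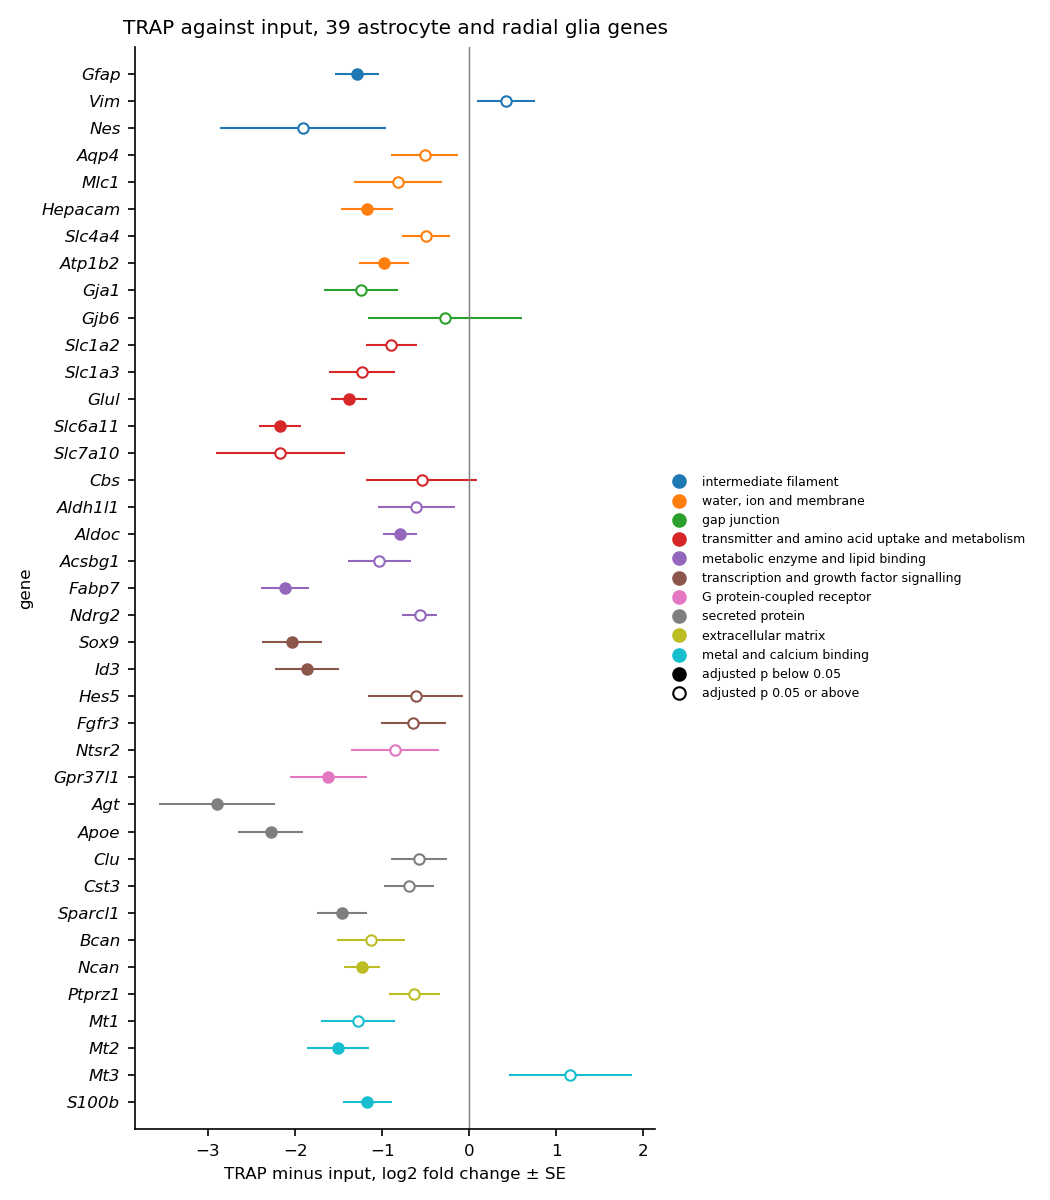
Log2 fold change (TRAP minus input, horizontal axis) of the 39 genes, with bars of 1 SE and colours for the role of each gene. Filled points passed an adjusted p of 0.05 in edgeR. Of 39 points 37 lie left of 0, and Vim and Mt3 lie right of it with open points.

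By level per exon length, the leading gene in input was Fabp7, with 1101 ± 340 RPKM (CPM per kilobase of exon, SD, n = 8), higher than 99.9% of the genes tested. Cst3 had 427 ± 177 RPKM, Aldoc 402 ± 130, Ndrg2 374 ± 75.1 and Atp1b2 245 ± 81.5 in input, with Cst3, Aldoc and Ndrg2 within 1 SD of each other and Atp1b2 below them by more than that. In TRAP the first place went to Cst3 with 273 ± 181 RPKM (n = 10), followed by Fabp7 with 261 ± 163, Ndrg2 with 252 ± 92.5 and Aldoc with 226 ± 40.2, each within 1 SD of its neighbour in this order. These genes were still abundant in TRAP, where Cst3 exceeded 98.7% of the genes tested. Levels above 100 RPKM were reached by 5 members in TRAP and 12 in input, and levels above 10 RPKM by 26 in TRAP and 33 in input. The neural stem cell filament gene Nes was lowest in both, at 0.335 ± 0.474 RPKM in TRAP and 1.29 ± 0.70 in input.

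Among genes of transmitter uptake and amino acid metabolism, the GABA transporter gene Slc6a11 gave the clearest separation. It lies on chromosome 6 at 114131241 to 114249886 (mm10, plus strand). Its CPM in KO TRAP 1 to 5 were 119, 114, 116, 163 and 188, and in WT TRAP 1 to 5 they were 182, 58.2, 97.8, 246 and 134. In KO input 1 to 5 they were 734, 282, 619, 470 and 974, and in WT input 1, 2/3 and 5 they were 616, 295 and 1046. Every TRAP library was below every input library, although KO input 2 and WT input 2/3 came near to WT TRAP 4. The log2 fold change was −2.17 ± 0.24 (SE; edgeR adjusted p = 1.01e-06), so TRAP stood at 22.2% of input. Glul, which encodes glutamine synthetase, had 68.7, 141 and 176 CPM (lowest, median and highest) in TRAP and 161, 358 and 477 CPM in input. Only KO input 2 lay within the TRAP range, and the log2 fold change was −1.38 ± 0.20 (edgeR adjusted p = 7.89e-05). Glul shares 108 exon bases with Mir8114, which counts without strand cannot assign.

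The glutamate transporter genes were lower by less and were not called. Slc1a2 had a log2 fold change of −0.90 ± 0.29 (edgeR adjusted p = 0.0771) and Slc1a3 one of −1.23 ± 0.38 (edgeR adjusted p = 0.062), and DESeq2 called both. Slc7a10, a neutral amino acid transporter gene, had a log2 fold change of −2.17 ± 0.74 on few reads, called by DESeq2 but not by edgeR. It had no read in 2 of 5 KO TRAP libraries, and its exons share 234 bases with Lrp3. Cbs, which encodes cystathionine beta-synthase, had −0.55 ± 0.64 and no read in 1 of 5 WT TRAP libraries.

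Among metabolic and lipid-binding genes, Fabp7, which encodes the fatty acid binding protein typical of radial glia, again had every TRAP library below every input library. It lies on chromosome 10 at 57784923 to 57788450. Its CPM were 53.1, 221, 320, 113 and 98.0 in KO TRAP 1 to 5 and 482, 136, 187, 203 and 175 in WT TRAP 1 to 5. They were 1246, 854, 551, 630 and 776 in KO input 1 to 5 and 1200, 823 and 632 in WT input 1, 2/3 and 5. The nearest pair was WT TRAP 1 and KO input 3, and the log2 fold change was −2.12 ± 0.27 (edgeR adjusted p = 1.13e-05). Aldoc, the brain form of aldolase, showed a smaller difference, with 303, 357 and 539 CPM in TRAP and 300, 760 and 951 CPM in input. At its low end in input, KO input 2 lay below all TRAP libraries, and WT input 2/3 (421 CPM) lay within the TRAP range. The log2 fold change was −0.79 ± 0.20 (edgeR adjusted p = 0.0166), and with the brain as a block −0.87 ± 0.25 (adjusted p = 0.0800). Ndrg2, a gene of the N-myc downstream regulated family used as an astrocyte marker, had 335, 530 and 875 CPM in TRAP and 608, 826 and 1078 CPM in input. In 8 of 10 TRAP libraries it lay below the lowest input library, yet the log2 fold change of −0.57 ± 0.20 was not called (edgeR adjusted p = 0.105). Without KO TRAP 3, which had 875 CPM, it was called at −0.79 (adjusted p = 0.00407). The folate enzyme gene Aldh1l1 and the acyl-CoA synthetase gene Acsbg1 had log2 fold changes of −0.61 ± 0.45 and −1.03 ± 0.36. Neither was called by edgeR, and DESeq2 called Acsbg1.

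Sox9, a transcription factor gene that starts gliogenesis, was the third gene with no overlap between TRAP and input. Its CPM were 18.5, 6.05, 5.10, 16.2 and 16.0 in KO TRAP 1 to 5 and 8.79, 5.05, 7.27, 18.4 and 20.2 in WT TRAP 1 to 5. They were 27.0, 27.3, 56.5, 45.8 and 39.1 in KO input 1 to 5 and 49.9, 46.5 and 65.4 in WT input 1, 2/3 and 5. In TRAP the libraries fell into low ones near 5 to 9 CPM and higher ones near 16 to 20 CPM, in both genotypes. The split largely followed the sequencing run. All low libraries were of run 1, and the higher ones were KO TRAP 1 of run 1 and every TRAP library of run 2 (replicates 4 and 5). The part of the run in this split was not tested. The log2 fold change was −2.04 ± 0.35 (edgeR adjusted p = 0.000519), and with the brain as a block it was −1.93 ± 0.54 (adjusted p = 0.0713). Slc6a11, Fabp7 and Sox9 were 3 of 39 genes without overlap in this direction, against 0.309% of all genes tested. Id3, a target of bone morphogenetic protein signalling that holds back differentiation, had 4.90, 12.7 and 37.8 CPM in TRAP and 25.3, 43.1 and 96.1 CPM in input. Its log2 fold change was −1.86 ± 0.37 (edgeR adjusted p = 0.00266), and 8 of 10 TRAP libraries lay below the lowest input library. With the brain as a block it was −1.75 ± 0.51 (adjusted p = 0.0910). Hes5, a Notch target, and Fgfr3, a growth factor receptor gene of astrocyte progenitors, had −0.62 ± 0.55 and −0.64 ± 0.37 and were not called.

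Among secreted proteins, the lipid carrier gene Apoe and the angiotensinogen gene Agt had the largest called differences of the 39 genes. Apoe, on chromosome 7 at 19696244 to 19699166, had 12.7, 59.3, 73.9, 11.9 and 42.5 CPM in KO TRAP 1 to 5 and 71.3, 26.8, 59.9, 105 and 92.0 CPM in WT TRAP 1 to 5. It had 259, 58.2, 280, 262 and 546 CPM in KO input 1 to 5 and 280, 119 and 382 CPM in WT input 1, 2/3 and 5. KO input 2 alone lay within the TRAP range, and the log2 fold change was −2.28 ± 0.37 (edgeR adjusted p = 0.000258). Agt, on chromosome 8 at 124556587 to 124569707, was at 0.163, 2.10 and 27.1 CPM in TRAP and 8.74, 37.4 and 88.0 CPM in input. The lowest TRAP value was 1 read, in KO TRAP 2. Its log2 fold change of −2.90 ± 0.67 (edgeR adjusted p = 0.0106) was called in 24 of 27 alternative fits. Sparcl1, which encodes hevin, a protein that promotes synapse formation, had 32.4, 143 and 222 CPM in TRAP and 181, 360 and 593 CPM in input, with a log2 fold change of −1.46 ± 0.28 (edgeR adjusted p = 0.00223). The chaperone gene Clu and the protease inhibitor gene Cst3 had −0.57 ± 0.32 and −0.69 ± 0.29 and were not called. Without KO TRAP 3, Cst3 was called at −1.04 (adjusted p = 0.00862).

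**Figure D2:**
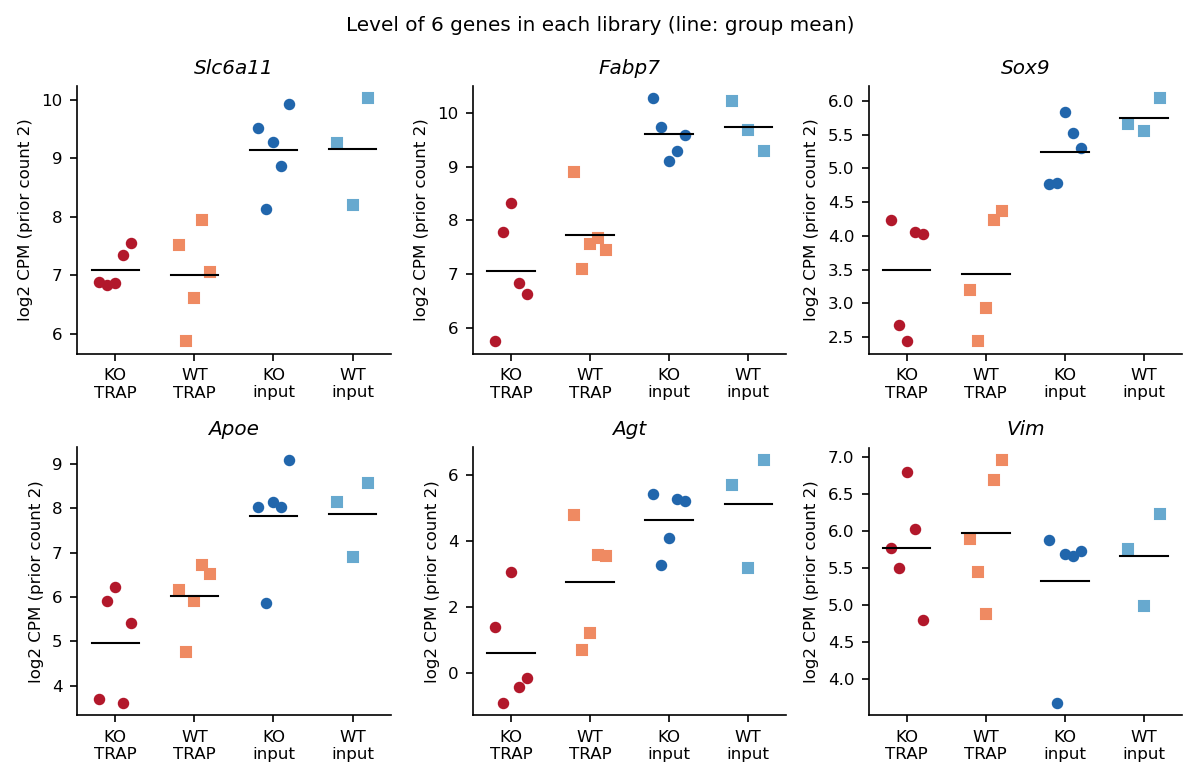
Log2 CPM (prior count 2, vertical axis) of Slc6a11, Fabp7, Sox9, Apoe, Agt and Vim in each library, in the order KO TRAP, WT TRAP, KO input and WT input, with a line at each group mean. Slc6a11, Fabp7 and Sox9 have all 10 TRAP points below all 8 input points, KO input 2 is the low input point of Apoe and Vim, and the points of Vim overlap throughout.

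Of the 3 intermediate filament genes, only Gfap, the filament of mature and reactive astrocytes, was called lower. It had 17.6, 48.1 and 95.8 CPM in TRAP and 72.7, 128 and 190 CPM in input, and the low end of input was WT input 1. The log2 fold change was −1.29 ± 0.25 (edgeR adjusted p = 0.00255), with −1.67 in run 1 and −0.64 in run 2 taken apart. With the brain as a block it was −1.04 ± 0.35 and no longer called (adjusted p = 0.167). Vim, the filament gene of radial glia, had 53.9, 44.6, 111, 65.0 and 27.2 CPM in KO TRAP 1 to 5 and 58.9, 43.1, 29.1, 103 and 124 CPM in WT TRAP 1 to 5. In input it had 58.2, 12.4, 51.2, 50.1 and 52.4 CPM in KO 1 to 5 and 53.4, 31.3 and 74.7 CPM in WT 1, 2/3 and 5. The ranges overlapped and the log2 fold change was 0.42 ± 0.34 (edgeR adjusted p = 0.539). Nes had −1.91 ± 0.95 with no read in 2 of 5 KO TRAP and 1 of 5 WT TRAP libraries, and it was not called.

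Of the membrane and junction genes, the adhesion gene Hepacam and the sodium pump subunit gene Atp1b2 were called lower. Hepacam had 19.0, 36.8 and 81.4 CPM in TRAP and 59.9, 78.7 and 153 CPM in input (log2 fold change −1.17 ± 0.30, edgeR adjusted p = 0.0205), and its call was lost with the brain as a block (−1.15 ± 0.37, adjusted p = 0.137). Atp1b2 had 162, 287 and 802 CPM in TRAP and 352, 722 and 988 CPM in input (−0.98 ± 0.28, edgeR adjusted p = 0.044), and it was called in only 10 of 27 alternative fits. The water channel gene Aqp4 (−0.51 ± 0.39), its neighbour in perivascular endfeet Mlc1 (−0.82 ± 0.50) and the bicarbonate cotransporter gene Slc4a4 (−0.50 ± 0.28) were not called. The connexin genes Gja1 and Gjb6 had −1.24 ± 0.43 and −0.28 ± 0.88 and were not called by edgeR, while DESeq2 called Gja1. Gjb6 had no read in 1 KO TRAP and 1 WT TRAP library.

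The orphan receptor gene Gpr37l1 had 1.58, 21.9 and 83.8 CPM in TRAP and 24.8, 87.7 and 137 CPM in input, with a log2 fold change of −1.62 ± 0.44 (edgeR adjusted p = 0.0311), called in 18 of 27 alternative fits. The neurotensin receptor gene Ntsr2 had −0.85 ± 0.50 and was not called. Of the matrix genes, Ncan, which encodes the proteoglycan neurocan, had 226, 334 and 625 CPM in TRAP and 520, 794 and 1411 CPM in input. In 9 of 10 TRAP libraries it lay below the lowest input library, and the log2 fold change was −1.24 ± 0.21 (edgeR adjusted p = 0.000404). The proteoglycan gene Bcan had −1.13 ± 0.39 and Ptprz1, which encodes a receptor phosphatase with proteoglycan forms, had −0.63 ± 0.30. Neither was called by edgeR, and DESeq2 called Bcan. S100b, a calcium-binding protein gene, had 26.8, 54.8 and 150 CPM in TRAP and 83.3, 154 and 217 CPM in input, with a log2 fold change of −1.17 ± 0.28 (edgeR adjusted p = 0.0136). With the brain as a block it was −1.07 ± 0.31 (adjusted p = 0.0899).

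Of the metallothionein genes Mt2 was lower in TRAP, and Mt1 and Mt3 were not called. Metallothioneins are small proteins that bind zinc and copper. Mt1 and Mt2 are induced by metals and stress hormones in glia, and Mt3 is rich in brain. In the mouse they lie side by side on chromosome 8, Mt3 at 94152607 to 94154148, Mt2 at 94172618 to 94173567 and Mt1 at 94179089 to 94180327 (mm10, plus strand). Mt1 and Mt2 are regulated through metal response elements, so a match of the core of that element is shown for each gene: the one nearest to the start among those upstream or, for Mt3, which had none upstream, its single match. The promoters are from RefSeq (GRCm38.p6, the assembly behind mm10), on the gene's strand, with the matched bases in capitals. For Mt1 the bases shown are at chr8:94179058-94179080, upstream of the start. For Mt2 they are at chr8:94172560-94172582, also upstream, with the match on the opposite strand. For Mt3 they are at chr8:94152626-94152648, past the start.
Mt1: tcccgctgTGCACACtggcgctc
Mt2: gggagggcGTGTGCAggctctgt
Mt3: gacagcagTGCACACacacggag
The letters searched were TGCACNC and TGCGCNC on both strands, from 250 bases before to 50 after the start. Mt1 had 3 matches, Mt2 had 4 and Mt3 had 1. A match occurred in 25.7% of 32851 mouse promoters of that length and in 11 of 41 promoters (26.8%) of the 34 members in that table, so the share among members was close to the share among all. A match is a description of letters, not a site of binding.

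Mt2 was lower in TRAP, with 5.42, 21.1 and 51.1 CPM against 37.1, 61.7 and 119 CPM in input, and a log2 fold change of −1.51 ± 0.36 (edgeR adjusted p = 0.0127). With the brain as a block it was −1.49 ± 0.45 (adjusted p = 0.104). Mt1 had 6.22, 24.4 and 126 CPM in TRAP and 45.9, 80.6 and 152 CPM in input (−1.27 ± 0.43, edgeR adjusted p = 0.0851, called by DESeq2). Mt3 went the other way without a call. Its CPM were 4.12, 45.9, 10.5, 5.46 and 1.87 in KO TRAP 1 to 5 and 5.94, 4.74, 5.14, 17.0 and 12.1 in WT TRAP 1 to 5. They were 1.18, 4.96, 0.640, 1.68 and 4.41 in KO input 1 to 5 and 23.4, 2.10 and 3.62 in WT input 1, 2/3 and 5. Most input libraries lay under 5 CPM, with WT input 1 far above them, and the log2 fold change was 1.16 ± 0.70 (edgeR adjusted p = 0.39). With the WT libraries alone it was −0.42 (adjusted p = 0.909).

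Ratios between related genes within each library are given as a description with no test, since the pairs were chosen with the values known. The log2 ratio of Mt3 to Mt1, in RPKM plus 0.5, was −1.68 ± 1.39 in TRAP (SD, n = 10) and −4.59 ± 1.55 in input (n = 8). The difference was 2.91 for Mt3 to Mt1 and 2.89 for Mt3 to Mt2. For Mt3 to Mt1 it was 2.90 in run 1 and 2.95 in run 2, but 4.17 in the KO libraries and 1.35 in the WT libraries. The other 4 pairs, Slc1a3 to Slc1a2, Gjb6 to Gja1, Mt2 to Mt1 and Bcan to Ncan, had differences of −0.35, 0.88, 0.02 and 0.03. Reads that match several places were not counted, so genes with near copies may be undercounted.

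**Figure D3:**
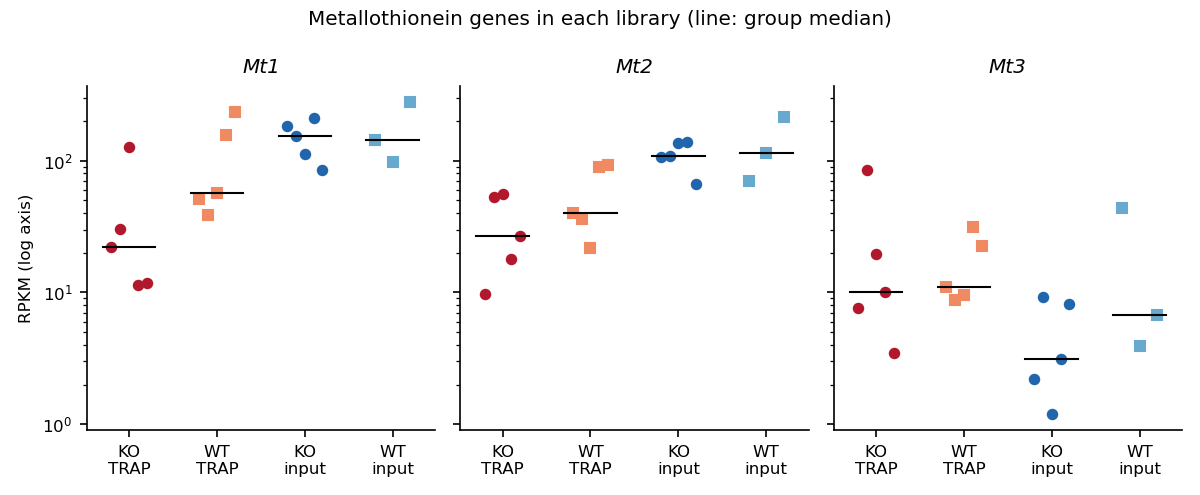
RPKM (log axis) of Mt1, Mt2 and Mt3 in each library of the 4 groups, with a line at each group median. Mt1 and Mt2 lie below the input range in most TRAP libraries. Within that range are WT TRAP 4 and WT TRAP 5 for both genes, and KO TRAP 3 for Mt1. Mt3 lies under 10 RPKM in 7 of 8 input libraries and at 3.48 to 85.4 RPKM in TRAP.

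Summed over the 39 genes, TRAP libraries held 2430 to 5474 CPM and input libraries 4973 to 10612 CPM. The lowest input library, KO input 2, thus lay within the TRAP range. KO input 2 was the lowest of the 8 input libraries in 20 of the 39 genes, and WT input 5 the highest in 13. Among TRAP libraries WT TRAP 2 was lowest in 11 genes and WT TRAP 4 highest in 10. The same 2 TRAP libraries were lowest and highest in the summed level of 10 oligodendrocyte lineage genes, at 1101 CPM in WT TRAP 2 and 5562 CPM in WT TRAP 4. The serotonergic sum was 12124 CPM in WT TRAP 2, its highest value, and 7378 CPM in WT TRAP 4. The part of other cells' RNA in these differences was not tested.

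**Figure D4:**
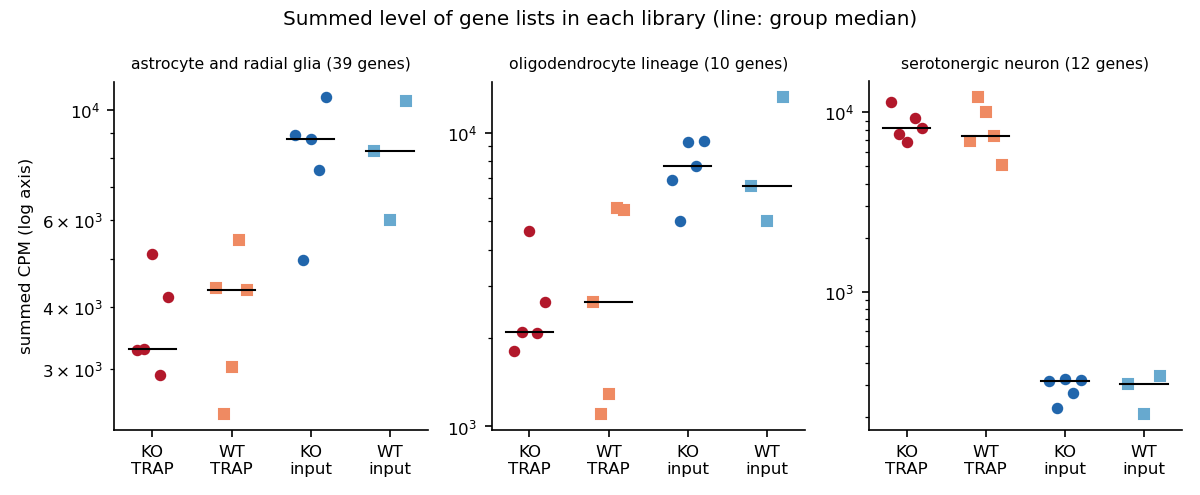
Summed CPM (log axis) of the 39 astrocyte and radial glia genes, 10 oligodendrocyte lineage genes and 12 serotonergic genes in each library, with a line at each group median. The first and second sums are lower in TRAP than in most input libraries, and the serotonergic sum is at 5108 to 12124 CPM in TRAP and 207 to 340 CPM in input.

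Further astrocyte genes and gliogenic transcription factor genes were among those lower in TRAP. For radial glia and reactive genes the edgeR counts were near or below the 2.31% of all genes called lower. DESeq2 called more radial glia genes, but its share over all genes is not given here. Of 46 further astrocyte genes tested, 6 were lower and 0 higher (median log2 fold change −1.02). Among them were Dbi, which encodes a ligand of the benzodiazepine site (−1.72 ± 0.21), the glycine transporter gene Slc6a9 (−1.16 ± 0.31), Slc25a18 (−2.02 ± 0.51), Tril (−1.55 ± 0.37) and Ttyh1 (−1.04 ± 0.24). Of 28 further radial glia and Notch genes 1 was lower, the RNA-binding protein gene Msi1 (−1.21 ± 0.35), and 0 were higher (median −0.63). Of 11 gliogenic transcription factor genes 3 were lower, Nfia (−2.0 ± 0.32), Nfix (−1.71 ± 0.24) and Sox8 (−1.57 ± 0.27), and 1 was higher, Zbtb20 (1.39 ± 0.31). With the brain as a block, Slc6a9 (−1.39 ± 0.44, adjusted p = 0.135), Slc25a18 (−1.84 ± 0.74, adjusted p = 0.267), Msi1 (−1.53 ± 0.48, adjusted p = 0.126) and Zbtb20 (1.49 ± 0.40, adjusted p = 0.0504) lost their calls. Of 7 reactive astrocyte genes tested, edgeR and DESeq2 called 0, with 2 at an unadjusted p below 0.05.

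Genes of the oligodendrocyte lineage were lower in TRAP too, and serotonergic genes were much higher. Of 10 oligodendrocyte lineage genes 6 were lower (median −1.28), among them the myelin gene Mbp at −1.97 ± 0.22 and the progenitor gene Olig1 at −1.81 ± 0.22. Of 10 microglia genes edgeR called 0 (median −1.27, 3 at an unadjusted p below 0.05) and DESeq2 called 2 lower. Of 10 endothelial and mural genes and 9 ependymal and choroid plexus genes tested, the main edgeR fit called 0, with medians of −0.47 and −0.83, and 0 and 2 at an unadjusted p below 0.05. Of 12 serotonergic genes 11 were higher (median 4.51), and of 10 pan-neuronal genes 2 were lower, the neurofilament genes Nefl and Nefm, with a median of −0.20. The brain block ended the calls of Nefl (−0.68 ± 0.22, edgeR adjusted p = 0.150) and of the oligodendrocyte genes Cnp (−0.87 ± 0.29, 0.151) and Sox10 (−1.29 ± 0.34, 0.0502). It also ended those of the serotonergic genes Htr1a (1.33 ± 0.40, 0.103) and Gata3 (1.39 ± 0.40, 0.0789). The choroid plexus gene Ttr gained a call with the block (−2.73 ± 0.31, edgeR adjusted p = 9.32e-07), against −2.63 ± 0.90 (adjusted p = 0.0906) in the main fit. Differences between these lists were not tested.

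Between KO and WT the 39 genes showed no called difference in either RNA kind. In TRAP, 38 of the 39 had enough reads for the test, Nes being too low, and edgeR and DESeq2 called 0. Over all 12204 genes edgeR called 0%, with 3.73% at an unadjusted p below 0.05, and DESeq2 called 11 genes. The log2 fold changes (KO minus WT) were positive for 20 and negative for 18 (48% of all genes were negative), with a median of 0.02, and 1 gene, Agt, had an unadjusted p below 0.05. In 0 of the 38 did all KO TRAP libraries lie below, or all above, the WT TRAP libraries, which held for 0.41% and 0.311% of all genes. Their standard errors ran from 0.24 to 1.26, so for many of these genes the data leave room for a difference of 2-fold or more in either direction.

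Agt had 2.24, 0.163, 7.95, 0.377 and 0.534 CPM in KO TRAP 1 to 5 and 27.1, 1.26, 1.95, 11.5 and 11.2 CPM in WT TRAP 1 to 5. The groups overlapped, and the log2 fold change was −2.60 ± 1.20 (edgeR adjusted p = 0.9992). In 3 of the KO libraries Agt had 1 or 2 reads. Without WT TRAP 1 it was −1.50. Cst3 had 103, 81.7, 304, 88.9 and 132 CPM in KO TRAP and 185, 107, 173, 399 and 449 CPM in WT TRAP, with a log2 fold change of −0.73 ± 0.43. Id3 had 5.61, 4.90, 18, 5.65 and 13.6 CPM in KO TRAP and 20.2, 11.7, 9.75, 37.8 and 25.4 CPM in WT TRAP, with −1.02 ± 0.62, and neither was called. In both genes KO TRAP 3 and KO TRAP 5 lay among the WT values.

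In input all 39 genes were tested, and edgeR and DESeq2 called 0. Over all 13036 genes edgeR called 0%, with 2.88% at an unadjusted p below 0.05, and DESeq2 called 4 genes. Of the 39, 0 had an unadjusted p below 0.05, and the log2 fold change (KO minus WT) was negative for 25 (48.7% of all genes), with a median of −0.08. Mt3 had −1.82 ± 1.22, which rested on WT input 1 and was −0.06 without it. Gfap had 190, 96.1, 124, 150 and 166 CPM in KO input 1 to 5 and 72.7, 132 and 113 CPM in WT input 1, 2/3 and 5, with 0.44 ± 0.31 (edgeR adjusted p = 0.9996), and the groups overlapped. Cbs had 24.3, 8.31, 14.1, 14.6 and 29.1 CPM in KO input and 15.2, 6.89 and 5.73 CPM in WT input, with 0.94 ± 0.72. Gjb6 was the only member whose KO input libraries (4.72, 7.87, 4.27, 0.240 and 4.12 CPM) all lay below the WT input libraries (10.8, 7.98 and 10.5 CPM), which held for 1.27% of all genes tested. In 0 members did all KO input libraries lie above the WT ones, against 0.967% of all genes. The log2 fold change of Gjb6 was −1.32 ± 1.00 (edgeR adjusted p = 0.9996).

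**Figure D5:**
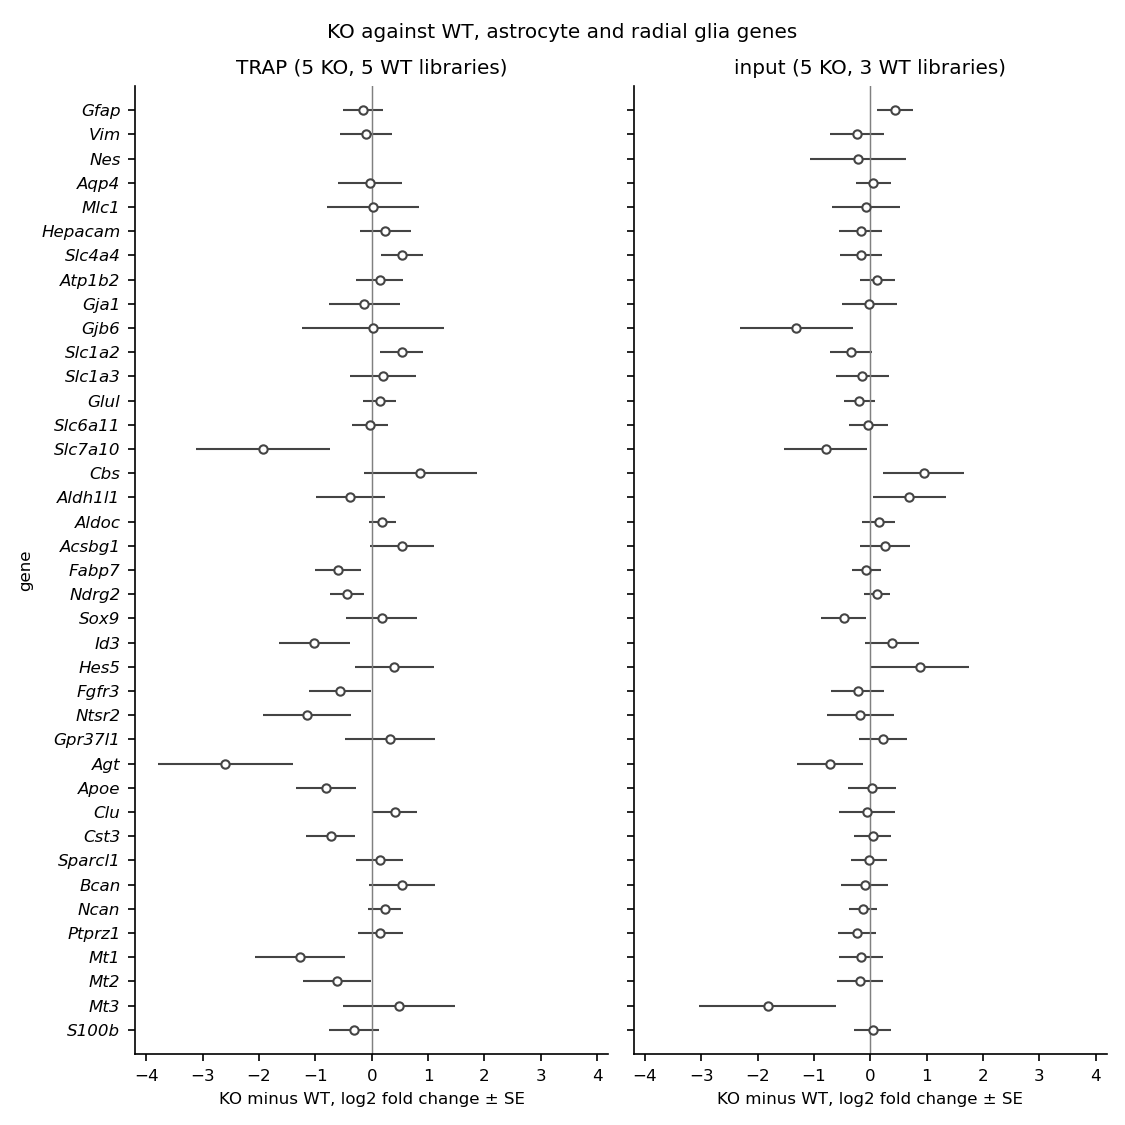
Log2 fold change (KO minus WT, horizontal axis) of the 39 genes in TRAP on the left and in input on the right, with bars of 1 SE. Nes was not tested in TRAP, and 0 genes passed an adjusted p of 0.05 in either panel. Agt lies farthest from 0 in TRAP, at −2.60, and Mt3 in input, at −1.82.

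The difference between the genotype effects in TRAP and in input was called by edgeR and DESeq2 for 0 of 39 genes. Over all 14261 genes edgeR called 0%, with 3.88% at an unadjusted p below 0.05, and DESeq2 called 6 genes, while 0 of the 39 reached that p. The smallest p-values belonged to Id3 (−1.43 ± 0.75), Mt3 (2.30 ± 1.52) and Slc1a2 (0.88 ± 0.58), each with an edgeR adjusted p of 1. Slc1a2 had 235, 117, 212, 161 and 447 CPM in KO TRAP and 245, 60.6, 95.9, 262 and 133 CPM in WT TRAP, against 139, 243, 605, 250 and 307 CPM in KO input and 305, 366 and 512 CPM in WT input. The TRAP against input difference of the called genes, taken within each genotype, was −2.16 in KO and −2.18 in WT for Slc6a11, and −2.38 in KO and −1.85 in WT for Fabp7. It was −1.72 in KO and −2.35 in WT for Sox9, and −2.66 in KO and −1.91 in WT for Apoe.

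The study's main question was splicing. The authors' tables of percent spliced in (PSI, the share of transcripts with 1 of 2 isoforms) annotate 16 splicing events in 9 of the 39 genes and 3 tandem UTR events, over 11 genes in all. Of these 11 genes, 6 were marked as CELF6 targets in the CLIP (crosslinking and immunoprecipitation) columns of the authors' deposited table, against 25.1% of 4737 genes with an event. Few events had PSI values in 3 or more libraries of each genotype. In TRAP, 4 splicing events could be tested and limma called 0, where it called 0.0537% of 1861 events. In input, 6 could be tested and limma called 0, where it called 0% of 1154. Of the tandem UTR events, 1 could be tested in each RNA kind, assigned to Atp1b2 by the symbol in the authors' table, and limma called 0, where it called 0.588% of 340 events in TRAP and 0% of 242 in input. The deposited coordinates of the tandem UTR events lie outside the mm10 spans of the genes they name (0 of 3 inside). The tandem UTR events are thus tied to the genes by symbol alone. All 16 splicing events lie at least partly within the span of their gene. In 1 of them, an alternative acceptor site of Aldoc that was tested in TRAP and in input, the first exon lies before the start of that span. None of the 12 tests had an unadjusted p below 0.05 (the smallest was 0.0755). PSI was held between 0.01 and 0.99, and values outside were set to these bounds. Most values of an Atp1b2 retained intron lay below 0.01 in TRAP and in input. Most values of the Atp1b2 tandem UTR event in input lay above 0.99 (0.988 to 0.995 in KO and 0.991 to 0.993 in WT). The bounds hid most of the spread there, so these tests could not decide whether the genotypes differed.

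That smallest p was for an alternative donor site of Ptprz1 in input, on chromosome 6 with donors at 23000199 and 23002746, 2547 bases apart. Forms of this phosphatase with and without a long extracellular stretch are known. Per the file headers PSI counts exon inclusion for skipped exons, and they do not say which donor site, or which form of a retained intron, a high PSI stands for. The PSI of the Ptprz1 event in KO input 1, 3, 4 and 5 was 0.558, 0.825, 0.546 and 0.487, and in WT input 1, 2/3 and 5 it was 0.606, 0.938 and 0.960. The groups overlapped, and the difference (KO minus WT) was −2.36 ± 1.10 on the scale log2(PSI/(1−PSI)) (limma adjusted p = 0.973). The value depended on single WT libraries: it was −3.57 ± 0.74 without WT input 1 (limma adjusted p = 0.757) and −1.58 ± 1.14 without WT input 5 (limma adjusted p = 0.958). Its unadjusted p fell below 0.05 without WT input 1, without KO input 3 and with wider PSI bounds, and no alternative gave a call. In TRAP the PSI was 0.979, 0.268, 0.520, 0.912 and 0.317 in KO and 0.955, 0.311, 0.953 and 0.286 in WT 1, 2, 3 and 5, with a difference of −0.27 ± 1.94 (limma adjusted p = 1). In TRAP it covered most of its possible range within each genotype. The retained introns of Atp1b2 had mean PSI of 0.0338 and 0.00735 in KO TRAP and 0.0304 and 0.00753 in WT TRAP. In input the means were 0.0179 and 0.00796 in KO and 0.0252 and 0.0141 in WT. The skipped exon of Apoe had 0.0292 ± 0.0101 (n = 4) in KO input and 0.0326 ± 0.0224 (n = 3) in WT input, and that of Aldoc had 0.836 ± 0.134 (n = 4) in KO input and 0.885 ± 0.096 (n = 3) in WT input.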

How the data were processed

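The authors deposited whole counts of exon reads per gene on mm10. Per the file headers these came from featureCounts 1.4.6-p5, without strand and without multi-mapping reads. Trimmomatic and STAR are named in the submitters' processing notes without versions. RNA was amplified with Nugen Ovation 2, per the labels. PSI values are fractions in tables the authors deposited, made with MISO per the series text. P-values in the authors' deposited tables were not used.

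Groups follow the labelled genotype and RNA kind, with the sequencing run as a covariate. All genes were fitted in edgeR 4.0.16 (R 4.3.3) by quasi-likelihood F tests after filterByExpr and TMM, with Benjamini-Hochberg adjustment and a threshold of 0.05. TRAP against input averages the KO and WT differences. DESeq2 1.42.0 and others were alternatives. Log2 CPM used a prior count of 2. PSI was compared with limma 3.58.1 on log2(PSI/(1−PSI)), held between 0.01 and 0.99. The code was tested on simulated data.

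The 39 genes and the other lists were chosen with earlier results of these data known. Genes with values per library were the 12 called with the largest change, the 3 most positive (only 2 were above 0), the 3 smallest p-values per genotype comparison and the 5 highest in input, and 2 per other list. Others were named after their values were seen. Same-numbered TRAP and input libraries come from 1 brain by the series text, yet the correlation of their deviations was only −0.034 to 0.064, and 2 of 7 were closest to their own number. The number of counts limits the precision of genes with few reads. Of the other lists, 1 called gene is not reported here.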

Additional observations from a re-analysis of the deposited data

Results flagged for a closer look

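Among 66 groups of 5 libraries, 7 had a library far from the others in log2 CPM by Dixon's criterion, which chance alone flags in about 1 of 20 groups. KO input 2 was low in 4 genes: Aldoc at 8.23 (others 9.54 to 9.89), Glul at 7.34 (others 8.41 to 8.57), Gpr37l1 at 4.65 (others 6.40 to 7.10) and Vim at 3.67 (others 5.66 to 5.87). The same library had the lowest level of the 8 input libraries in 20 of the 39 genes and the lowest sum of them, at 4973 CPM. KO input 4 was low for S100b at 6.47 (others 7.22 to 7.40). In TRAP, KO TRAP 3 was high for Ndrg2 at 9.77 (others 8.39 to 8.67), and WT TRAP 4 was high for Atp1b2 at 9.65 (others 7.77 to 8.27). Both also had high oligodendrocyte sums, 4640 CPM in KO TRAP 3 and 5562 CPM in WT TRAP 4, against a TRAP median of 2381 CPM. A high sum was not particular to them. The WT TRAP sums had a mean of 3210 CPM, a median of 2657 CPM and an SD of 2174 CPM (n = 5), so another, unflagged WT TRAP library was also high. The part of these levels in the flagged values was not tested.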

How the results depend on the processing

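Of the 39 genes, 16 were called lower in TRAP than in input. The count was 9 with the replicate block, 7 with the KO libraries alone, 6 with the WT libraries alone and 9 without KO TRAP 1 and WT input 5, an alternative chosen after seeing the data. Leaving out 1 library gave 10 (without WT input 5) to 21 (without KO TRAP 3), and 23, 24, 16, 14 and 18 came from DESeq2, no expression filter, RLE scaling, no run term and WT input 2 and 3 kept apart. Fewer libraries enter the fits of 1 genotype, and the cause of the other changes was not tested. The share of all genes called is not given for these alternatives. Their counts are thus not set against all genes in the same fit. Slc6a11, Fabp7, Apoe and Glul were called in all 27 alternatives. The block ended the calls of Aldoc, Gfap, Hepacam, Id3, Mt2, S100b and Sox9, with log2 fold changes of −1.93 (Sox9) to −0.87 (Aldoc) in that fit. Mt3 reversed to −0.42 with the WT libraries alone. In the comparisons of KO with WT, their difference and PSI, 0 members were called under every alternative run, the replicate block included. For KO against WT and for PSI that block paired KO and WT libraries of the same number, which are different mice. In input, numbers 2 and 3 formed 1 block. The correlation of deviations in same-numbered KO and WT libraries was −0.11 to 0.11, so there the block is not a match by brain. Genes with a few reads per library, such as Agt, Nes, Mt3 and Gjb6, are limited by depth.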
